A study of Homo sapiens with 8 samples.

Results

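The 10 genes described here encode transcription factors of neuronal and neuroendocrine differentiation: the basic helix-loop-helix (bHLH) factors NEUROG2, NEUROD1, NEUROD4, NHLH1 and NHLH2, the zinc finger factors INSM1 and INSM2, the homeobox factor DRGX, and MYT1 and ST18 of the myelin transcription factor family. They were chosen by symbol, with their levels in these libraries already known, and are 10 of 52719 genes for which the deposited transcript values could be summed. All 10 symbols were found. The cells were SH-SY5Y, an established human neuroblastoma line that resembles immature sympathetic neurons, grown in DMEM/F12 with foetal calf serum, and their mRNA was sequenced. In 4 libraries (replicates 17 to 20) the cells were undifferentiated, with no agent, dose or time in the labels. The other 4 (replicates 21 to 24) came from cells given 9-cis retinoic acid, at 1 µM over 7 days. Time in culture and the agent cannot be told apart. No genetic change is recorded in either group, and both come from 1 tumour line, for which the labels name no separate cultures, so every p-value measures the spread between libraries, which may be technical.

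Proneural bHLH factors such as NEUROG2 bind E-box sites in DNA as pairs with widely expressed E proteins, and drive progenitors towards a neuronal fate. ID proteins take up the E proteins and so hold proneural factors inactive, and HES factors, which act below Notch, repress proneural genes. NEUROD and NHLH factors act later in the same cascade, INSM1 marks neuroendocrine cells and sympathoadrenal precursors, and MYT1-type factors repress non-neuronal genes in new neurons.

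The upstream sequences are shown first because the results turn on 5 expressed members, 4 of which had far less RNA in differentiated cells. RefSeq's promoter table (GRCh38.p14) held 9 transcription starts for 8 of the 10 genes, all but INSM1 and ST18. The part shown for each expressed gene is 30 bases long, read 5′ to 3′ on the gene's strand, from 45 to 16 bases before the RefSeq start, and capitals mark the motif TATANA, the core of a TATA box.

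NEUROG2: attgttttcttggtggTATATAaggggttt

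INSM2: cggcccgcgtctcagcTATAAAgatagccc

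DRGX: aattatgcgtgagatTATAAAggcgagtgc

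NEUROD1: atcactaactgggcTATATAacctgagcgc

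MYT1: ctcagagagtaaacagatatattggagccc

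The stretches lie at chr4:112516196-112516225 (NEUROG2, minus strand), chr14:35534119-35534148 (INSM2, plus strand), chr10:49396105-49396134 (DRGX, minus strand), chr2:181680533-181680562 (NEUROD1, minus strand) and chr20:64164407-64164436 (MYT1, plus strand). TATANA began 29, 29, 30 and 31 bases before the start of NEUROG2, INSM2, DRGX and NEUROD1. MYT1 had none in its stretch. NHLH1, which was nearly silent, also had the motif, while NEUROD4 and both starts of NHLH2 did not. On the gene's strand, with a start 40 to 20 bases upstream, TATANA was found in 3.46% of the table's 35116 promoters. The motif was chosen after the sequences had been read, and a match is a description of the letters. GENCODE 29 places the first base of INSM2 122 bases, and that of NEUROD1 359 bases, upstream of RefSeq's start, so these stretches lie in exons of that annotation, or overlap one. The RefSeq start of MYT1 lies 62058 bases inside the GENCODE gene, so its stretch is not upstream of the gene's first annotated base.

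The E-box, CANNTG (the same on both strands), is the letters that bHLH pairs bind. It was absent from the 250 bases before the RefSeq starts of NEUROG2, INSM2, NEUROD1 and MYT1. By GENCODE 29, all 250 bases for NEUROD1 and 122 of the 250 for INSM2 lay in an exon of the gene. Those for MYT1 lay inside its gene, so absence there says little about the sequence before the first annotated bases. DRGX had 2 E-boxes, 126 and 117 bases before its start. NEUROD4 also had 2, at 116 and 46 bases, and NHLH1 had 1. The 2 starts of NHLH2, whose 250 bases also lay in exons, had 2 and 1. At least 1 was thus found for 5 of the 9 starts, and in 61.8% of all promoters. AGGTCA, the core letters bound by retinoid receptors, searched on both strands and allowed to overlap other motifs, was in none of the 9 upstream sequences and in 12.1% of all. The upstream sequences of NEUROG2 and DRGX, which touch no GENCODE exon of their genes, are given whole, with E-boxes and TATANA in capitals, since these genes stood at the lowest levels relative to undifferentiated cells. That of NEUROG2 lies at chr4:112516181-112516430 and that of DRGX at chr10:49396090-49396339, both on the minus strand.

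NEUROG2: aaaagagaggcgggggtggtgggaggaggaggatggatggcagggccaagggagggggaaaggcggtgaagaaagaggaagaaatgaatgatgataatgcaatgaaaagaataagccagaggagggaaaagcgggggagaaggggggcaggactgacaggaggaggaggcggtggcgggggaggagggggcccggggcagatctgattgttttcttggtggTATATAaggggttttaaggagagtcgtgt

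DRGX: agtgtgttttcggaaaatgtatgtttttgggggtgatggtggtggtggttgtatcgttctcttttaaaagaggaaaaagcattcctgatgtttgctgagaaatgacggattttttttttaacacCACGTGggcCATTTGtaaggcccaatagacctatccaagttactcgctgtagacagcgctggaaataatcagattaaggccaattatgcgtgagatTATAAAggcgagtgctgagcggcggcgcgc

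Base composition was not shared. The G and C content of the 250 upstream bases was 74.8% for INSM2 and 70.0% for NEUROD1, but 56.0% for NEUROG2, 45.6% for MYT1 and 44.0% for DRGX, against a median of 58.0% over all promoters. INSM2 and NEUROD1 were also the genes whose 250 bases overlapped GENCODE exons, by 122 and 250 bases, against 0 for the others.

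Expression is given in TPM, a gene's share of its library's transcripts corrected for their length, so levels can be compared between genes. Only 5 of the 10 factors, INSM2, NEUROG2, DRGX, MYT1 and NEUROD1, reached the minimum for testing, an average of at least 1 TPM across all 8 libraries. All 5 were at 1 TPM or more in every undifferentiated library, but only INSM2 and MYT1 were so in every differentiated library. NEUROG2, DRGX and NEUROD1 therefore passed the minimum only through the undifferentiated group. The deposited TPM values hold no read depth, so the counting error of the lowest levels is unknown. In bulk RNA, fewer cells with a transcript and less of it per cell cannot be told apart.

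**Figure D1:**
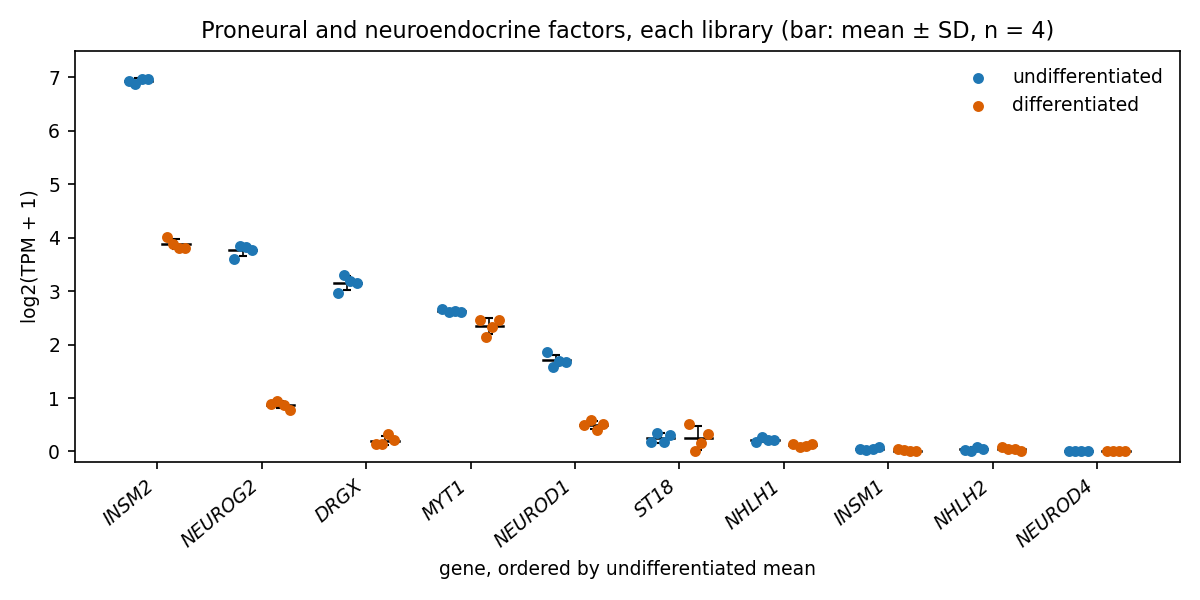
Levels of the 10 factors as log2(TPM + 1) on the vertical axis, with genes along the horizontal axis in order of their undifferentiated mean; points are libraries, blue undifferentiated and orange differentiated, and bars are means ± SD (n = 4). The 4 blue points of INSM2, NEUROG2, DRGX, MYT1 and NEUROD1 lie above their 4 orange points, and the other 5 genes lie near 0 in both groups.

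Among the bHLH factors, NEUROG2, which commits progenitors to a neuronal fate, was measured at 11.2, 13.4, 13.2 and 12.7 TPM in undifferentiated replicates 17 to 20. In differentiated replicates 21 to 24 it was at 0.860, 0.935, 0.837 and 0.717 TPM. Every differentiated library was thus below every undifferentiated one, and the means were 12.6 ± 1.005 and 0.837 ± 0.0903 TPM (SD, n = 4 each), 15.1-fold apart. On the log2(TPM+1) scale, which understates changes at low levels, the difference was -2.89 ± 0.07 (SE). NEUROG2 (ENSG00000178403, minus strand of chromosome 4, 112513516 to 112516172 in GENCODE 29 on GRCh38) is annotated with 1 transcript of 2 exons, so its value is that of this transcript.

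NEUROD1, which acts after the neurogenins and sustains neuronal and endocrine differentiation, was at 2.62, 2.01, 2.23 and 2.20 TPM in undifferentiated cells and at 0.413, 0.498, 0.321 and 0.420 TPM in differentiated cells. The groups did not overlap, and all 4 differentiated libraries were under 1 TPM. The means, 2.26 ± 0.255 and 0.413 ± 0.0724 TPM, were 5.48-fold apart, with a log2 difference of -1.21 ± 0.07 (SE). The protein-coding transcript NEUROD1-201 held nearly all of it, 94.97% ± 4.48 (SD, n = 4) in undifferentiated cells. The non-coding NEUROD1-202 was listed at 0 in undifferentiated replicate 18 and in all 4 differentiated libraries. NEUROD1 (ENSG00000162992) lies on the minus strand of chromosome 2, 181673088 to 181680876, and has 2 exons.

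The other bHLH members were nearly silent. NHLH1, a factor of newly formed neurons, stood at 0.127 to 0.211 TPM in undifferentiated and 0.0611 to 0.0980 TPM in differentiated libraries. These ranges did not overlap, but all values were far under the minimum. NHLH2, its paralog, ranged from 0 to 0.0629 TPM and from 0.00580 to 0.0611 TPM, and NEUROD4, a NEUROD1 relative, was listed at 0 in all 8 libraries.

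INSM2 and INSM1 are intronless zinc finger genes of 1 family, whose SNAG domain recruits the histone demethylase KDM1A. INSM2 was at 121, 116, 124 and 125 TPM in undifferentiated cells and at 15.2, 13.7, 13.1 and 13.0 TPM in differentiated cells. It was the most abundant of the 10 factors in every library, above 95.5% of protein-coding genes by its undifferentiated mean and above 58.8% by its differentiated mean. The means of 122 ± 4.005 and 13.7 ± 1.01 TPM differed 8.86-fold, and the log2 difference was -3.06 ± 0.05 (SE). INSM2 (ENSG00000168348) lies on the plus strand of chromosome 14, 35534042 to 35537054.

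INSM1, the better known neuroendocrine member of the pair, was at or below 0.0538 TPM in every library, and was listed at 0 in differentiated replicates 23 and 24. In undifferentiated cells the mean was 0.0303 ± 0.0170 TPM, against 122 for INSM2. The INSM transcripts of these cells were thus almost wholly INSM2, before and after differentiation.

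DRGX, a paired-type homeobox factor of dorsal spinal cord and sensory neurons, was at 6.81, 8.81, 8.10 and 7.95 TPM in undifferentiated and at 0.0987, 0.0992, 0.259 and 0.158 TPM in differentiated libraries. No other member was left at so small a part of its undifferentiated level, 1.94% on the means, and the highest differentiated library was at 0.259 TPM against 6.81 TPM in the lowest undifferentiated one. The means were 7.92 ± 0.827 and 0.154 ± 0.0754 TPM. The log2 difference of -2.95 ± 0.08 (SE) is bounded by the pseudocount at so low a level. The 6-exon transcript DRGX-201 made up 97.8% ± 0.890 (SD, n = 4) of the gene's undifferentiated level. DRGX (ENSG00000165606) lies on the minus strand of chromosome 10, 49364181 to 49396016.

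MYT1, a zinc finger factor that supports neuronal and endocrine differentiation, was at 5.31, 5.14, 5.15 and 5.11 TPM in undifferentiated and at 4.48, 3.39, 3.99 and 4.52 TPM in differentiated cells. The groups did not overlap, but the difference was small, 5.18 ± 0.0893 against 4.10 ± 0.528 TPM. Replicate 22, the lowest, lay at 3.39 TPM, and the other differentiated libraries at 3.99 to 4.52 TPM. The log2 difference was -0.28 ± 0.08 (SE) with TPM as deposited and -0.53 with quantile normalization. Its transcripts kept similar shares: MYT1-201 was 59.7% ± 4.21 and 57.0% ± 7.56 of the gene, MYT1-203 28.96% ± 3.07 and 31.6% ± 8.01, and the shorter MYT1-202 11.4% ± 3.43 and 11.4% ± 2.23 (SD, n = 4 per group, undifferentiated first). Salmon divides reads between such overlapping transcripts, so these shares are estimates. MYT1 (ENSG00000196132) lies on the plus strand of chromosome 20, 64102394 to 64242253.

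**Figure D2:**
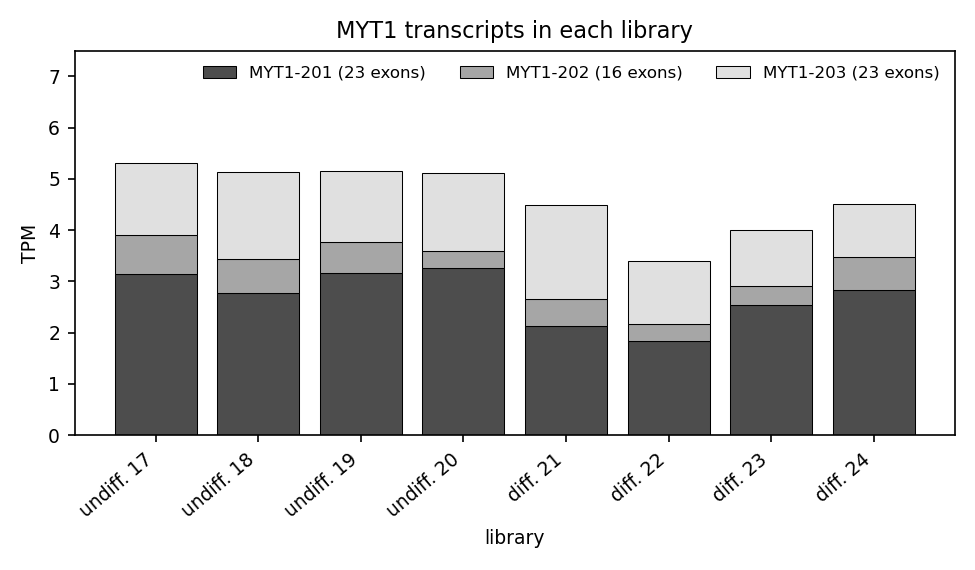
TPM of the 3 annotated MYT1 transcripts, stacked on a linear vertical axis that starts at 0, in each of the 8 libraries along the horizontal axis. The dark bar (MYT1-201) is the largest part in all libraries, and the stack is lowest in differentiated replicate 22, at 3.39 TPM.

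ST18, the MYT1 relative on chromosome 8, was at 0.123 to 0.268 TPM in undifferentiated and at 0 to 0.427 TPM in differentiated libraries, with overlapping groups. Of its 24 transcripts in the data, 22 were at 0 in all libraries. Nearly all of its signal came from ST18-210, a non-coding transcript of 3 exons, so the coding transcripts were at or near 0.

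The factors differed in how much was left after differentiation. In single differentiated libraries DRGX stood at 1.25% to 3.27% of its undifferentiated mean, NEUROG2 at 5.68% to 7.40%, INSM2 at 10.7% to 12.5%, NEUROD1 at 14.2% to 22.0% and MYT1 at 65.5% to 87.2%. These ranges did not overlap, so the order of the 5 was the same in every differentiated library. By level, the undifferentiated order was INSM2, NEUROG2, DRGX, MYT1 and NEUROD1, and the ranges of neighbours in that order did not overlap. In differentiated cells INSM2 was still first, but MYT1 was next, at 4.89 times NEUROG2, where it had been at 0.410 times. NEUROD1 and DRGX were last.

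**Figure D3:**
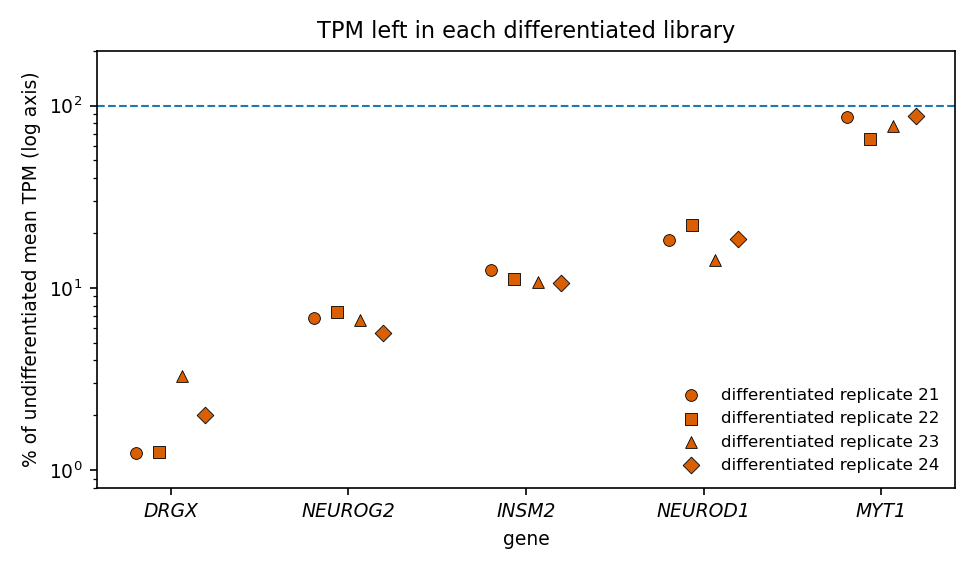
TPM of the 5 expressed factors in each differentiated library as a percentage of the undifferentiated mean, on a logarithmic vertical axis; the dashed line is 100% and symbols mark the 4 differentiated libraries. DRGX lies between 1.25% and 3.27% and MYT1 between 65.5% and 87.2%, with the other genes between.

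All 5 tested members were called lower by limma, the test used for all genes (Benjamini-Hochberg adjusted p under 0.05). Of the 17077 genes tested, 17.4% were called lower and 51.3% were called in either direction, while 49.6% had groups that did not overlap and 17.3% had them with the differentiated group lower. As the members were picked with this contrast known, nothing is read from their count. The call for MYT1 was lost within lane 8, with no filter on low values, and without undifferentiated replicate 17, 18, 19 or 20 or differentiated replicate 23. Over all genes, 5791 were called higher, 6665 without differentiated replicate 22, and 5281 to 5459 without any other single differentiated replicate. Replicate 22 was the highest differentiated library for NEUROG2 (0.935 TPM, others 0.717 to 0.860) and NEUROD1 (0.498 TPM, others 0.321 to 0.420). For INSM2 and DRGX it lay within the range of the others.

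Lane gave a contrast that did not serve to choose the members. Undifferentiated replicates 17 and 18 were run in lane 7 and replicates 19 and 20 in lane 8. Between these pairs limma called 0.17% of 17077 genes, and 4.18% had an unadjusted p under 0.05; of the 5 tested members 0 were called and 0 had such a p. The largest member difference was for INSM2, at 116 and 121 TPM in lane 7 against 124 and 125 TPM in lane 8 (log2 difference 0.07 ± 0.03, SE). For NEUROG2 the lane difference was 0.07 ± 0.12 (SE), for DRGX 0.04 ± 0.16, for NEUROD1 -0.04 ± 0.13 and for MYT1 -0.02 ± 0.02. The 5 adjusted limma p-values ran from 0.989 to 1. All 4 differentiated libraries were run in lane 8, so lane 7 held undifferentiated libraries alone. Within lane 8 (2 undifferentiated against 4 differentiated libraries) the log2 differences between the groups were -2.92 for NEUROG2, -1.19 for NEUROD1, -3.10 for INSM2, -2.97 for DRGX and -0.27 for MYT1.

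The genes around the factors were read from 7 lists of partners, repressors, relatives and targets. Of their 164 genes in the data, 106 were tested, and of these 106 genes 41 rose and 48 fell. Of all 17077 tested genes, 5791 (33.9%) were called higher and 2970 (17.4%) lower. The median log2 difference of the 106 genes was -0.08, and that of all tested genes 0.10. As the lists were chosen with earlier results of these data known, no enrichment is read from these counts. The share of all calls that were rises fell from 66.1% to 52.4% with median-of-ratios scaling and to 45.01% with quantile normalization, with medians of all genes of -0.01 and -0.07. Of the 31 tested genes that the naming rule took from these lists and that are reported, 28 kept their direction and call in each alternative in which they were tested, the exceptions being ID2, HES6 and HAND2.

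The dimer partners and their inhibitors moved apart. All 3 E proteins, which pair with NEUROG2 and NEUROD1, fell: TCF12 from 148 ± 4.53 to 84.4 ± 14.6 TPM (limma, log2 difference -0.82, adjusted p = 3.59e-04), TCF4 from 242 ± 7.42 to 157 ± 31.1 TPM (-0.64, adjusted p = 0.00381) and TCF3 from 94.8 ± 6.05 to 74.9 ± 1.96 TPM (-0.33, adjusted p = 7.86e-04). All 4 ID genes, whose proteins sequester E proteins, rose. ID3 went from 51.7 ± 4.79 to 153 ± 19.4 TPM (limma, log2 difference 1.54, adjusted p = 5.55e-06) and ID1 from 24.0 ± 2.67 to 48.9 ± 7.52 TPM (0.99, adjusted p = 2.12e-04). ID2 (140 ± 9.80 to 169 ± 7.40 TPM, log2 0.27) and ID4 (1.31 ± 0.197 to 1.86 ± 0.132 TPM, log2 0.31) changed less. The 4 rises were 2 with median-of-ratios scaling, where ID2 (log2 0.15, limma adjusted p = 0.163) and ID4 were not called. They were 3 in 9 other alternatives, among them leaving out undifferentiated replicate 18, 19 or 20 or differentiated replicate 23 or 24. The 9 include the minimum of 5 TPM, which ID4 did not reach, so there all 3 tested ID genes were called. The list's summed level was 687 to 709 TPM in undifferentiated and 670 to 705 TPM in differentiated libraries.

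**Figure D4:**
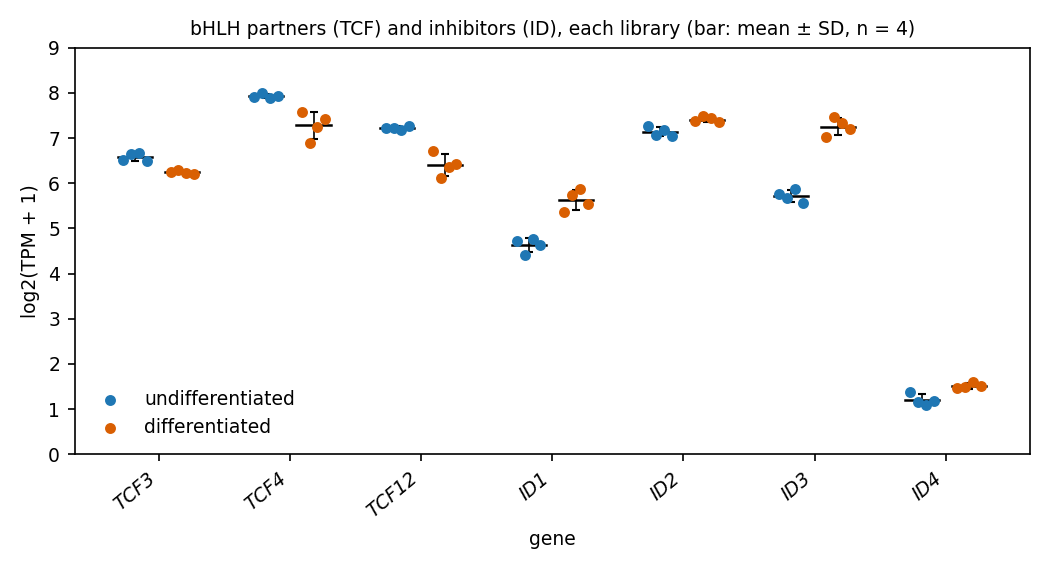
Levels as log2(TPM + 1) on the vertical axis of the 3 E protein genes (TCF) and the 4 ID genes along the horizontal axis; points are libraries, blue undifferentiated and orange differentiated, and bars are means ± SD (n = 4). Orange points lie below blue for the TCF genes, whose log2 differences are -0.33 to -0.82, and above for the ID genes, at 0.27 to 1.54.

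Of 10 tested repressors of proneural genes and their corepressors, 2 rose and 3 fell (median 0.01), and with no filter on low values 4 rose and 3 fell. HES1, the Notch-responsive repressor of proneural genes, rose from 2.44 ± 0.488 to 19.6 ± 1.35 TPM (limma, log2 difference 2.59, adjusted p = 3.81e-07). REST, which silences neuronal genes in other cells, rose from 13.0 ± 0.367 to 21.1 ± 3.07 TPM (0.65, limma adjusted p = 8.27e-04), while its corepressor RCOR2 fell from 24.8 ± 2.33 to 7.14 ± 0.679 TPM (-1.66, limma adjusted p = 1.45e-06) and HES7 fell by 0.41. HES6, which opposes HES1 and lies below proneural factors, was at 17.0 ± 0.743 and 17.3 ± 2.51 TPM and did not pass the test; its log2 difference was 0.02, and -0.09 and -0.16 with the scalings named above.

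The next list held SNAG-domain factors, corepressor genes that such domains recruit, and the cyclin gene CCND1. Of its 17 tested genes 4 rose and 6 fell (median -0.09), CCND1 among the latter (-0.26). KDM1A, the demethylase bound by INSM factors, fell from 167 ± 3.50 to 83.2 ± 3.77 TPM (limma, log2 difference -0.99, adjusted p = 4.25e-07). The neuronal SNAG repressor SCRT2 fell from 3.31 ± 0.0608 to 0.650 ± 0.0554 TPM (-1.39, limma adjusted p = 3.70e-06), and SNAI2, a SNAG factor of mesenchymal cells, rose from 3.05 ± 0.171 to 7.89 ± 1.39 TPM (1.12, limma adjusted p = 7.21e-05). With quantile normalization 2 genes of this list rose and 10 fell.

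Relatives of the members were mostly silent, as 17 of 24 were under the minimum and 7 of these, NEUROG1 and NEUROG3 among them, were at 0 in all libraries. Of the 7 tested, 3 fell and 2 rose (median -0.13), while 5 fell with no filter on low values and both that rose lay under a minimum of 5 TPM. HAND1, a bHLH factor of heart and sympathetic cells, fell from 59.1 ± 2.92 to 17.9 ± 1.69 TPM (-1.67, limma adjusted p = 4.45e-07), and MYT1L, the third of the MYT family, from 38.8 ± 2.33 to 15.3 ± 2.55 TPM (-1.30, limma adjusted p = 2.57e-05). ATOH8 rose by 1.23. HAND2, the sympathetic relative of HAND1, did not pass (440 ± 7.48 and 422 ± 20.0 TPM), but was called lower with median-of-ratios scaling (-0.18, limma adjusted p = 0.00621; 0.03 with protein-coding transcripts alone). MYT1L was thus far more abundant than MYT1 (5.18 TPM) in undifferentiated cells, and still above it (4.10 TPM) in differentiated cells.

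In the list of genes that act below proneural factors, 11 of 30 tested genes rose and 15 fell (median -0.07). With a minimum of 5 TPM, which fewer genes of the list reached, 7 rose and 10 fell. BTG2, an antiproliferative gene of neurogenic divisions, rose from 8.52 ± 0.416 to 76.8 ± 2.61 TPM (limma, log2 difference 3.03, adjusted p = 4.85e-09), and the cell cycle inhibitor CDKN1A from 16.6 ± 1.71 to 74.8 ± 2.26 TPM (2.11, adjusted p = 1.34e-07). Doublecortin (DCX), which steadies microtubules in young neurons, fell from 4.50 ± 0.777 to 0.696 ± 0.656 TPM (-1.77, limma adjusted p = 7.70e-04). Its differentiated libraries were widely spread, from 0.0156 TPM in replicate 22 to 1.51 TPM in replicate 21, so the size of the fall is uncertain. RND3, a small GTPase of neuronal migration, fell from 44.4 ± 2.37 to 15.3 ± 1.58 TPM (-1.48, limma adjusted p = 1.40e-06). Of the Delta-like genes of the Notch pathway, DLL3 fell from 4.07 ± 0.258 to 2.32 ± 0.455 TPM (-0.62, limma adjusted p = 0.00206), and DLL1 was under the minimum at 0.212 ± 0.0326 and 0.103 ± 0.0233 TPM.

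Neuroendocrine secretory genes moved both ways, 16 of 28 tested genes up and 11 down (median 0.25). The granule protein CHGA (220 ± 9.88 to 27.4 ± 2.58 TPM, log2 difference -2.96) and DDC, the decarboxylase of amine synthesis (61.3 ± 2.04 to 8.75 ± 0.586 TPM, -2.68), fell in the limma test (adjusted p = 2.39e-08 and 1.50e-08). SCG2, a granin, and PAM, which amidates peptides, rose from 11.1 ± 0.709 to 79.4 ± 3.67 TPM and from 49.7 ± 1.59 to 264 ± 12.5 TPM (limma, adjusted p = 1.52e-08 and 8.70e-09). The list's summed level was 1733 to 1825 TPM in undifferentiated and 1971 to 2053 TPM in differentiated libraries.

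The last list held homeobox and related factors of sensory and neuroendocrine cells, the setting in which DRGX and INSM factors are known. Of its 11 tested genes 8 fell and 2 rose (median -0.79), while 20 were under the minimum. Over all tested genes, 17.4% were called lower and 33.9% higher, and nothing is read from the count. Across the alternatives 4 to 11 genes of the list fell. With a minimum of 5 TPM, which fewer genes of the list reached, 4 fell and 2 rose. ISL1, a LIM factor of sensory and sympathetic neurons, fell from 179 ± 3.09 to 46.8 ± 2.74 TPM (limma, log2 difference -1.91, adjusted p = 2.87e-08). PROX1 went from 85.9 ± 4.51 to 23.4 ± 4.66 TPM (-1.85, limma adjusted p = 8.28e-06), and ONECUT2 and TLX1 fell by 1.63 and 1.56. PHOX2A, a homeobox factor of noradrenergic neurons, rose by 0.91, from 224 ± 13.3 to 427 ± 101 TPM. Differentiated replicate 22 was at 577 TPM for this gene, and the other differentiated libraries at 367 to 391 TPM. TLX2 was the other rise, at 0.71, and both rises are named after their values were seen.

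**Figure D5:**
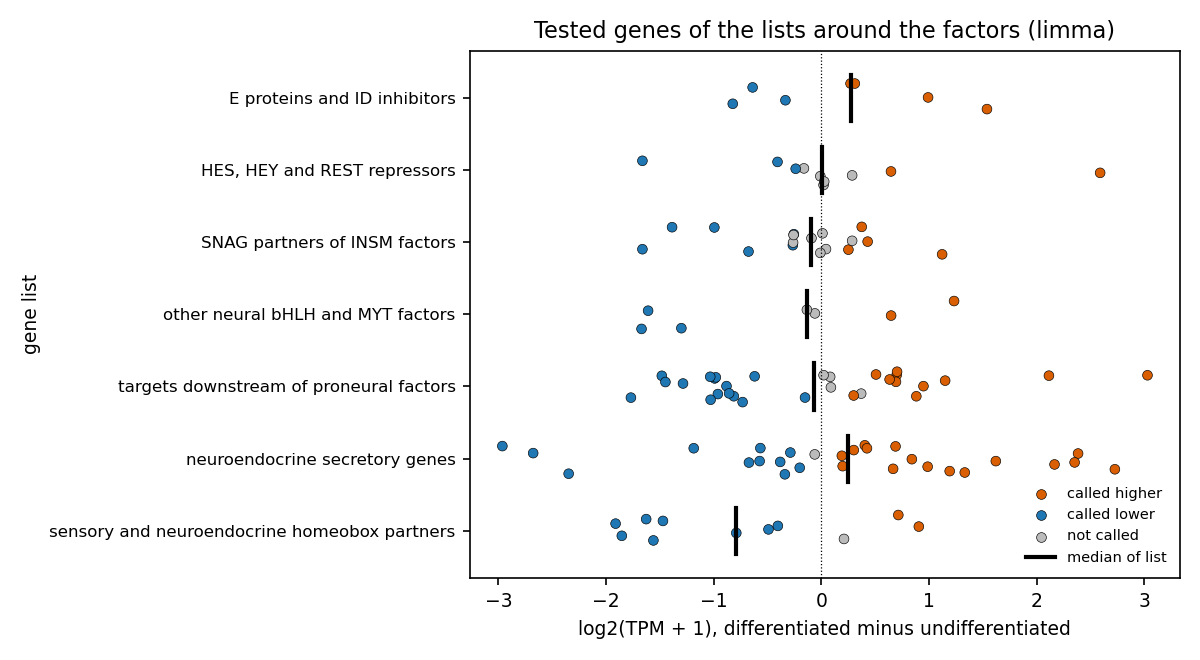
Log2 difference (differentiated minus undifferentiated, on the log2(TPM + 1) scale, horizontal axis) of each tested gene of the 7 lists (vertical axis); points are genes, orange called higher, blue called lower and grey not called by limma, and thick lines are list medians. The homeobox list has the lowest median, -0.79, and the other medians lie between -0.13 and 0.27.

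The members lie on 8 chromosomes, with the INSM1 and MYT1 pair on chromosome 20 and the NHLH pair on chromosome 1. Of 27 neighbouring or overlapping genes 17 were tested, and 6 rose and 3 fell (limma). These counts lie near the shares over all 17077 tested genes, 33.9% called higher and 17.4% called lower, so nothing is read from them. The antisense RNA NEUROG2-AS1, which overlaps NEUROG2 on the other strand, fell from 4.42 ± 0.303 to 0.306 ± 0.241 TPM (limma, log2 difference -2.07). The kit was stranded, but whether the counting used strand is not given, so reads of this pair may not have been told apart. The other fallen neighbours were ZGRF1, 23.2 kb from NEUROG2 (-0.60), and RALGAPA2, 18.6 kb from INSM1 (-0.64). RALGAPA1, 1.30 kb from INSM2, was at 29.6 ± 0.886 and 26.1 ± 4.16 TPM and did not pass (log2 difference -0.19, limma adjusted p = 0.166). CERKL, which overlaps NEUROD1, was at 1.89 ± 0.202 and 2.10 ± 0.726 TPM and did not pass. Beside MYT1, OPRL1 rose by 0.43, and beside NEUROD1, ITGA4 and ITPRID2 rose by 1.92 and 0.30. ALPK1 beside NEUROG2 rose by 1.15, and NCSTN and VANGL2 beside NHLH1 by 0.77 and 0.38. Neighbours were compared after the data had been seen.

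The gene most like each expressed member was sought among 12601 protein-coding genes over the 8 libraries, as the smallest root mean square difference of log2(TPM+1) after each gene was centred on its mean. It was CHGA for NEUROG2 (0.06), MYC for INSM2 (0.08), the cerebellin CBLN4 for DRGX (0.11), cyclin CCNB2 for NEUROD1 (0.08) and the chromatin gene GATAD2A for MYT1 (0.03). CBLN4 went from 5.98 ± 0.358 to 0.00756 ± 0.00873 TPM. As the libraries form 2 groups, such a match rests on the difference between them.

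Of the sympathoadrenal markers of the line, HAND2 had group means of 440 and 422 TPM and was not called. GATA2 (226 and 138 TPM), GATA3 (121 and 55.1 TPM) and DBH (226 and 43.6 TPM) were among those that fell. Tyrosine hydroxylase (TH), the first enzyme of catecholamine synthesis, was near 0 (0.0929 ± 0.0442 and 0.0130 ± 0.0260 TPM). Of 11 tested line markers, 7 fell and 1 rose (median -1.03). Over all tested genes, 17.4% were called lower and 33.9% higher. Mesenchymal markers differed between the same groups in the direction opposite to the members, as 11 of 12 tested rose. Their summed level was 374 to 402 TPM in undifferentiated and 1311 to 1437 TPM in differentiated libraries. The highest differentiated levels in that sum were those of VIM (201 and 553 TPM, undifferentiated first) and COL3A1 (43.6 and 472 TPM). COL1A2 was at 0.142 and 0.143 TPM, and PRRX1 at or near 0 in both groups. The Schwann list summed to 8.38 to 11.2 and 20.1 to 21.0 TPM, with SOX10 at 0 in all libraries, and 1 of 4 tested genes rose, S100B. In the blood and endothelial list CD68, a lysosomal protein of macrophages and other cells, was the 1 gene tested and rose to 20.9 ± 1.69 TPM, while HBA1, HBB and CD3E were at 0 and PTPRC at 0.360 ± 0.105 and 0.412 ± 0.199 TPM. The part of these cell types in the results was not tested.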

How the data were processed

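mRNA libraries from 4 undifferentiated and 4 differentiated SH-SY5Y samples were used, grouped by their labels. Per the labels' protocols a stranded Illumina mRNA kit was used. Per the submitters' processing notes the authors used FastQC 0.11.2, Salmon (version not given) and GRCh37, and deposited TPM values per transcript. These notes do not state Salmon's strand setting or index. TPM is relative, so a rise of abundant transcripts lowers all others, and depth is unknown.

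Of 194993 transcripts, 180930 (92.8%) matched GENCODE 29 by identifier, and these held 93.2% to 95.0% of each library's TPM. They were summed to 52719 genes (Python 3.11.15, pandas 2.3.3). Coordinates are those of GENCODE 29 on GRCh38 and promoters those of RefSeq on GRCh38.p14, not the authors' build. The 17077 genes with a mean of at least 1 TPM were tested on log2(TPM + 1) with limma 3.58.1 in R 4.3.3 (two-sided, trend, Benjamini-Hochberg adjusted p under 0.05). The scripts were tested on simulated data. Replicates are numbered 17 to 24 without shared numbers, so no block was fitted. Alternatives were a pseudocount of 0.1, median-of-ratios or quantile scaling, lane 8 only, protein-coding transcripts only, no filter, a minimum of 5 TPM, no trend, and each library left out.

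The members and lists were chosen with earlier results of these data known. The naming rule took up to 4 called genes per pathway list by size of log2 difference, a fixed set of genes whether called or not, the gene most like each expressed member, and called neighbours. Of the listed genes, 3 were not in the summed table and were not analysed here. Some genes the rule took are not reported here.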

Additional observations from a re-analysis of the deposited data

Results flagged for a closer look

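In 3 of 82 groups of 4 libraries examined, 1 library lay far from the other 3, as judged by its gap to the nearest divided by the whole range (Dixon's test at the 95% level). Chance alone flags about 5% of such groups, and no member gene was among them. CHGA was at 205 TPM in undifferentiated replicate 17 against 223 to 226 TPM, and DLL3 in the same library at 3.68 against 4.15 to 4.24 TPM. PAM was at 52.1 TPM in undifferentiated replicate 20 and at 48.7 to 49.1 TPM in the others. In these 3 genes the distance was small beside the difference between the groups, except for DLL3, whose differentiated mean was 2.32 TPM.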

How the results depend on the processing

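The members were chosen with this contrast known, so their direction under the alternatives is no support. With a pseudocount of 0.1 TPM the log2 differences were -3.76 for NEUROG2, -2.21 for NEUROD1, -3.14 for INSM2 and -5.02 for DRGX, a matter of the smaller constant at low levels. With quantile normalization they were -3.11 for NEUROG2, -1.43 for NEUROD1, -3.20 for INSM2 and -0.53 for MYT1, and with median-of-ratios scaling -3.17 for INSM2. Leaving out 1 library gave -2.94 to -2.86 for NEUROG2, -1.24 to -1.15 for NEUROD1, -3.11 to -3.04 for INSM2, -3.01 to -2.90 for DRGX and -0.32 to -0.21 for MYT1. Genes called lower numbered 2970, but 5098 with quantile normalization and 1914 within lane 8; the latter has fewer libraries. Genes called between lanes numbered 29, but 3 with a minimum of 5 TPM and 43 with the smaller pseudocount, and 0 to 0 when 1 library was left out (limma, 765 to 913 at an unadjusted p under 0.05), where 1 lane had a single library assumed to vary like the rest. HES6, at 0.02, was at -0.0891 with median-of-ratios scaling, -0.16 with quantile normalization and -0.0056 within lane 8, and -0.0620 to 0.0868 with 1 library left out. HAND2, at -0.06, was at 0.0272 with protein-coding transcripts only. For these 2 genes, and for the counts under quantile normalization, the cause was not tested. No paired analysis was possible because the groups share no replicate numbers. Without read counts, differences between the members near 0 TPM could not be resolved.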

Other observations

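Several factors of the sensory and neural lists lay near or under the testing minimum, and are named here after their values were seen, with no test. POU4F2, a factor of sensory and retinal neurons, was at 1.07 to 1.39 TPM in undifferentiated and 0.0224 to 0.0719 TPM in differentiated libraries. Its relative POU4F1 was at 0.641 to 0.929 and 0.0364 to 0.0582 TPM, and EBF3, a factor that acts after proneural genes, at 0.957 to 1.16 and 0.0299 to 0.0779 TPM. The bHLH repressor BHLHE40 had the opposite order, at 0.0498 to 0.242 TPM in undifferentiated and 1.16 to 1.53 TPM in differentiated libraries. BHLHE41, its relative, was at 0 to 0.0392 and 0.515 to 1.86 TPM. POU4F3, of the same family as POU4F1 and POU4F2, was at 0.0640 to 0.216 and 0.0369 to 0.129 TPM, with overlapping groups.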
